A study of Mus musculus with 10 samples.

Results

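The platelet-derived growth factors (PDGF) and vascular endothelial growth factors (VEGF) are secreted dimers with which epithelia signal to the tissue around them, and 9 of their genes were followed here, namely the PDGF ligands Pdgfa, Pdgfb, Pdgfc and Pdgfd, the PDGF receptors Pdgfra and Pdgfrb, and the VEGF ligands Vegfa, Vegfb and Vegfc. They were chosen by name from the 19938 genes to which a probe set of the GeneChip Mouse Gene 1.0 ST Array is assigned alone, and each of the 9 has 1 such probe set. The arrays held RNA of epidermis from 3-day-old mice, lifted off the dermis after dispase digestion, with 1 array per animal. In 5 ILK-deficient mice both Ilk alleles were floxed (Ilktm1Star), and in 5 ILK-expressing mice 1 allele was. Both groups were hemizygous for Tg(KRT14-cre)1Amc/J, which the labels call heterozygous, so the controls carry Cre too and 1 floxed copy of Ilk, the gene of integrin-linked kinase. The keratin 14 promoter directs Cre to basal keratinocytes and to the cells that arise from them, and other cells left in the sheet keep the gene. The design calls the animals littermates, but which litter each array came from is not given in the labels.

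PDGF-A and PDGF-C bind the receptor encoded by Pdgfra, PDGF-D binds that encoded by Pdgfrb, and PDGF-B binds both. In skin the ligands are made largely by keratinocytes of the epidermis and hair follicle, while the receptors sit on dermal fibroblasts, dermal papilla cells and pericytes. VEGF-A from keratinocytes acts on Kdr and Flt1 of blood vessels, VEGF-B on Flt1, and VEGF-C on Flt4 of lymphatic vessels.

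Pdgfc was the only member called different between the genotypes, 1.55-fold higher in ILK-deficient epidermis. Pdgfa and Vegfb lay higher by smaller amounts that did not pass the test. Both PDGF receptors gave low values of about equal size in the 2 genotypes, and Pdgfd was under the filter on low values on every array. The members were tested with limma among 32046 probe sets that reached a linear value of 50, or 5.64 on the log2 scale, on at least 5 arrays. A call is an adjusted p under 0.05 (Benjamini-Hochberg over all of these), and log2 fold changes are ILK-deficient minus ILK-expressing. Of the 8 members tested, 1 was called, and it was higher. Among all probe sets tested, 3.78% were called and 2.81% were called higher, beside which the members' single call is a result about Pdgfc and not about the list. All 8 members tested had a log2 fold change above 0, as did 16354 of the 32046 probe sets, and the members' median was 0.15 against 0.0031 over all probe sets. At an unadjusted p under 0.05 there were 3 of 8 members, against 15.9% of the probe sets. Arrays of the 2 genotypes were fully apart for 1 member, against 6.33% of the probe sets.

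Arrays give the amount of transcript and not the use of a promoter, but the start of the called ligand can be set beside those of VEGF ligands whose upstream sequence is rich in sites for common factors. Of the 9 members, 7 were matched in the promoter table used here, taken from RefSeq for GRCm38.p6, and Pdgfb and Pdgfrb were not. The 250 bases ahead of each start were searched on both strands for GGGCGG, the GC box that SP1 binds, for ACGTG, the core of the hypoxia response element, and for GCGTGGGCG, a site of EGR factors. These were found in 32.7%, 16.6% and 0.536% of 32851 such windows, and where they overlap another motif they are counted for both. The window of Pdgfc is 50.8% G or C and held none of the 3, while that of Vegfb is 76.4% G or C and held 4 GC boxes. The window at the outer start of Vegfa is 59.2% G or C and held 2. Capitals mark the GC boxes on either strand.
Pdgfc, chr3:81036166-81036415, plus strand: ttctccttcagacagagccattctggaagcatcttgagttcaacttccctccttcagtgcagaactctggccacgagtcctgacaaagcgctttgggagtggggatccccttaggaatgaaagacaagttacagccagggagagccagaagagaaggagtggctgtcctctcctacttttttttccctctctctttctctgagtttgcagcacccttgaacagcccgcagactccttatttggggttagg
Vegfb, chr19:6987652-6987901, minus strand: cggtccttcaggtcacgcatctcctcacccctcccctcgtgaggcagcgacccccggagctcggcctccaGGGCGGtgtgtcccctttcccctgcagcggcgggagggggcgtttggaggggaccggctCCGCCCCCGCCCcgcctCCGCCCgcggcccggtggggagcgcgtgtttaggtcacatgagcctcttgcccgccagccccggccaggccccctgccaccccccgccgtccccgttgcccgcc
Vegfa, chr17:46032378-46032627, minus strand: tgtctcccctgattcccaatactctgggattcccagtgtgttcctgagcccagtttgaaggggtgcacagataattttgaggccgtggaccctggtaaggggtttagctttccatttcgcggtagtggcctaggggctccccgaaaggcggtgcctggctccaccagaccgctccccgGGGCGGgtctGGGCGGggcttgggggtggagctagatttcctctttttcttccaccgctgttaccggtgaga
The 2 windows listed for Pdgfa held 1 and 2 GC boxes, that of Vegfc held 2, and those of Pdgfd and Pdgfra held none. The hypoxia core was found in the window of the inner Vegfa start and in no other window of a member, and the EGR site in none. A match is only a run of letters, and its absence from 250 bases does not bear on the factor.

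Pdgfc encodes a ligand of the Pdgfra receptor that is secreted in a latent form and released when a protease cuts off its CUB domain. Its probe set, 10492689, read 10.94, 11.26, 11.11, 11.18 and 11.10 in ILK-deficient replicates 1 to 5. In ILK-expressing replicates 1 to 5 it read 10.70, 10.44, 10.86, 10.10 and 10.32. The lowest ILK-deficient array therefore lay above the highest ILK-expressing array, though only just, and the ILK-expressing arrays were spread wider. The 5 ILK-deficient arrays averaged 11.12 ± 0.12 (SD) and the 5 ILK-expressing arrays 10.48 ± 0.30 (SD). The log2 fold change was 0.63 (standard error 0.13, 95% interval 0.34 to 0.93), a 1.55-fold difference with an interval of 1.26 to 1.90. Limma gave an adjusted p = 0.0292 (unadjusted p = 0.000699). The exact permutation test over arrays, two-sided and not adjusted over probe sets, gave p = 0.00794, the smallest that 5 arrays against 5 allow. The difference was above 0 under all 23 alternative settings, but the call was lost under 10 of them.

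Pdgfa, the main PDGF of keratinocytes and a signal to dermal fibroblasts and the dermal papilla, showed a smaller difference. Probe set 10535043 read 11.43, 11.48, 11.32, 11.64 and 11.74 in ILK-deficient replicates 1 to 5. It read 11.40, 10.88, 11.36, 10.79 and 11.09 in ILK-expressing replicates 1 to 5. ILK-expressing replicates 1 and 3 reached into the range of the ILK-deficient arrays and the other 3 lay below it. The 5 ILK-deficient arrays averaged 11.52 ± 0.17 (SD) and the 5 ILK-expressing arrays 11.10 ± 0.27 (SD), which puts the log2 fold change at 0.42 with a 95% interval of 0.12 to 0.71. This did not pass in limma (adjusted p = 0.126, unadjusted p = 0.00959). The two-sided exact permutation test over arrays, not adjusted over probe sets, gave p = 0.0317. That Pdgfc passed and Pdgfa did not does not show that their changes differ, which was not tested.

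Pdgfb, the ligand with which endothelium recruits pericytes, differed least among the 3 PDGF ligands that could be tested. Probe set 10430660 read 9.66, 9.81, 9.50, 9.50 and 9.80 in ILK-deficient replicates 1 to 5. It read 9.42, 9.21, 9.85, 9.47 and 9.60 in ILK-expressing replicates 1 to 5. The single highest array was ILK-expressing and the genotypes were mixed. The log2 fold change was 0.14 (95% interval -0.12 to 0.41, adjusted p = 0.68 from limma), so a rise of up to 1.33-fold lies within the interval. It was 0.069 without ILK-expressing replicate 2 and 0.23 without ILK-expressing replicate 3, without a call. Pdgfd, a latent ligand of the Pdgfrb receptor, read between 5.32 and 5.47 on the ILK-deficient arrays and between 5.37 and 5.45 on the ILK-expressing arrays (probe set 10583021). It was under 50 on all 10 arrays and was not tested.

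Pdgfra encodes the receptor of PDGF-A and PDGF-C and marks the fibroblasts of the dermis. Probe set 10522503 read 6.20, 5.92, 6.36, 6.03 and 5.75 in ILK-deficient replicates 1 to 5. It read 5.90, 6.10, 5.89, 6.17 and 5.78 in ILK-expressing replicates 1 to 5. The genotypes overlapped, with ILK-deficient replicates 1 and 3 above the highest ILK-expressing array and replicate 5 below the lowest. Their log2 fold change was 0.08 (95% interval -0.18 to 0.35, adjusted p = 0.864 from limma), and it was 0.0046 without ILK-deficient replicate 3 and 0.16 without ILK-deficient replicate 5. Pdgfrb, the receptor of pericytes and other mural cells, read 6.04 to 6.32 on the ILK-deficient and 6.06 to 6.28 on the ILK-expressing arrays (probe set 10456046). Its log2 fold change was 0.0081 (95% interval -0.15 to 0.17, adjusted p = 0.983), and its sign turned under 5 of 22 alternatives. Both receptors were at 50 or more on all 10 arrays, but within 1 log2 unit of that limit. For the receptors, changes above 1.27-fold (Pdgfra) and 1.12-fold (Pdgfrb) lie outside the 95% intervals. Background in so low a value makes a fold change smaller than that of the transcript, and by how much was not tested. In a bulk sample, fewer cells of a type and less RNA per cell cannot be told apart.

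**Figure D1:**
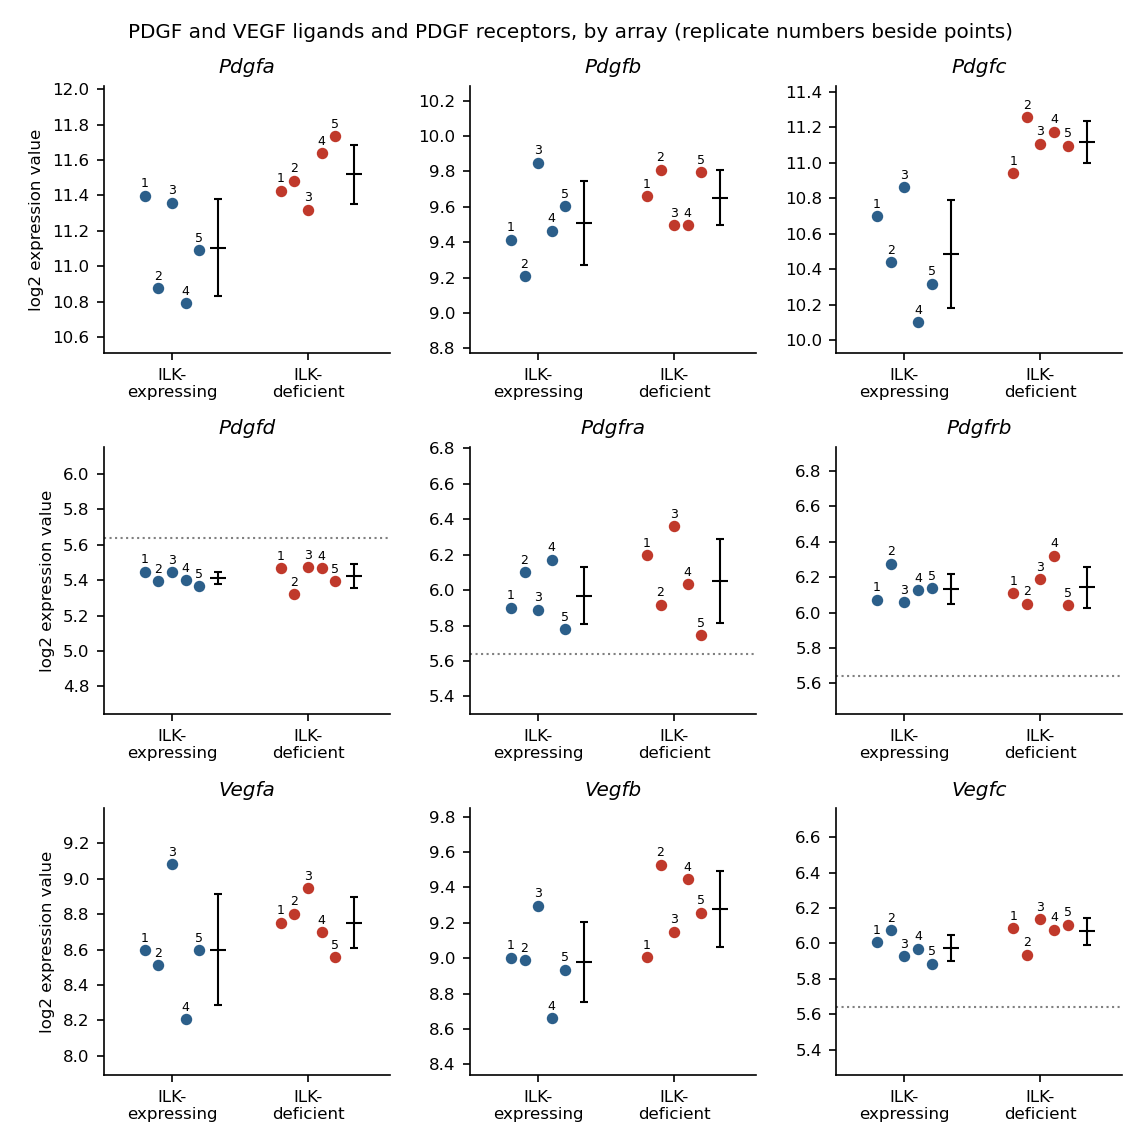
Log2 expression value (vertical axis) of each of the 9 genes on 5 ILK-expressing (blue) and 5 ILK-deficient (red) arrays, with replicate numbers beside the points, and the mean and SD of each genotype as black bars. All panels span the same number of log2 units, and the dotted line is the limit of 5.64. Pdgfc alone shows no overlap of the genotypes, and Pdgfd lies under the limit on every array.

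Vegfa, the vessel growth factor of keratinocytes, was not called. Probe set 10451198 read 8.75, 8.80, 8.95, 8.70 and 8.56 in ILK-deficient replicates 1 to 5. It read 8.60, 8.51, 9.08, 8.21 and 8.60 in ILK-expressing replicates 1 to 5. The ILK-expressing arrays held both the highest and the lowest value, and the log2 fold change of 0.15 lay within their spread (95% interval -0.16 to 0.47, adjusted p = 0.731 from limma). Leaving out ILK-expressing replicate 3 moved it to 0.27, and leaving out ILK-expressing replicate 4 moved it to 0.055, without a call.

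Vegfb, a ligand of Flt1 with a part in the survival of vessels, read 9.01, 9.53, 9.15, 9.45 and 9.26 in ILK-deficient replicates 1 to 5 (probe set 10465559). It read 9.00, 8.99, 9.30, 8.66 and 8.94 in ILK-expressing replicates 1 to 5. All ILK-expressing arrays but replicate 3 lay below all ILK-deficient arrays, though replicate 1 of each genotype was nearly equal. The log2 fold change was 0.30 (standard error 0.13, 95% interval 0.016 to 0.58). This did not pass in limma (adjusted p = 0.279, unadjusted p = 0.0403). The two-sided exact permutation test over arrays, also unadjusted, gave p = 0.0714. Vegfc, the growth factor of lymphatic vessels, read 5.94 to 6.14 on ILK-deficient and 5.89 to 6.07 on ILK-expressing arrays (probe set 10571788). It was low in both genotypes, with a log2 fold change of 0.10 (95% interval -0.037 to 0.23, adjusted p = 0.535).

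**Figure D2:**
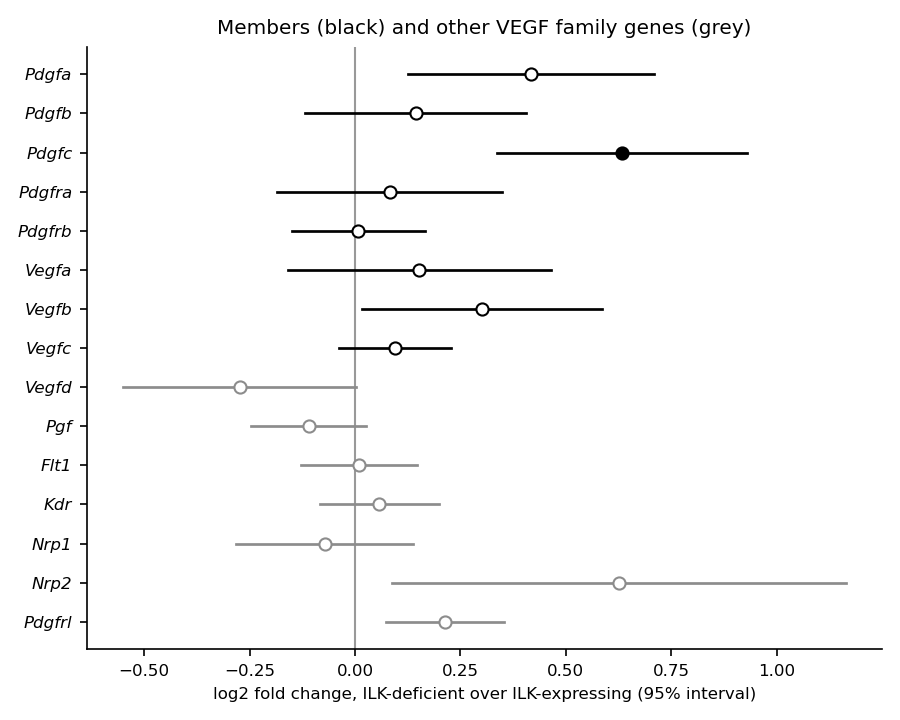
Log2 fold change of ILK-deficient over ILK-expressing epidermis (horizontal axis) with its 95% interval from limma, for the 8 genes tested (black). In grey are 7 other genes, Pdgfrl and those of the VEGF family and its receptors. The filled point marks the call, Pdgfc at 0.63, and the intervals of Pdgfa, Vegfb, Nrp2 and Pdgfrl, none of them called, also lie above 0.

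Pdgfa, Pdgfb, Pdgfc, Vegfa and Vegfb, the 5 ligands well above the limit, moved together on some of the ILK-expressing arrays. All 5 lay above the mean of their genotype in ILK-expressing replicate 3, by 0.26 to 0.48 on the log2 scale. All 5 lay below it in ILK-expressing replicate 4, by deviations of -0.39 to -0.043. No ILK-deficient array had all 5 on 1 side of the mean, and the mean deviations there ran from -0.11 to 0.11. Replicate 3 was the highest ILK-expressing array for Pdgfb, Pdgfc, Vegfa and Vegfb. Replicate 4 was the lowest for Pdgfa, Pdgfc, Vegfa and Vegfb. For Pdgfa replicate 1 was highest, and for Pdgfb replicate 2 was lowest. What sets replicates 3 and 4 apart was not tested. These 5 ligands were put together after their values were seen.

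**Figure D3:**
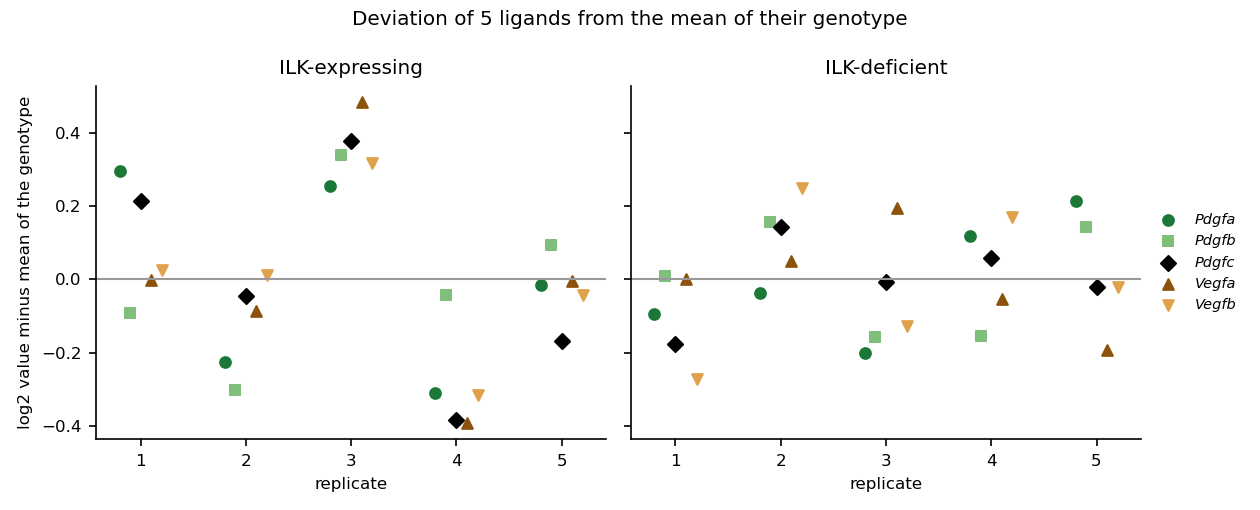
Deviation of 5 ligands from the mean of their genotype in log2 units (vertical axis), by replicate (horizontal axis), for ILK-expressing arrays at left and ILK-deficient arrays at right. All 5 points lie above 0 in ILK-expressing replicate 3 and below 0 in ILK-expressing replicate 4.

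The call of Pdgfc depended on most of the arrays. It was lost when any 1 of ILK-deficient replicates 2, 3, 4 or 5 or ILK-expressing replicates 2, 4 or 5 was left out, with adjusted p values of 0.0516 to 0.0704 from limma and log2 fold changes of 0.54 to 0.64. It was kept without ILK-deficient replicate 1, ILK-expressing replicate 1 or ILK-expressing replicate 3. It was also lost with the test named in the methods after adjustment (adjusted p = 0.0713), with the replicate number as a block (adjusted p = 0.0853) and on the arrays whose label starts with D alone (log2 fold change 0.45, adjusted p = 0.174). Those labels begin with D, D' or C', whose meaning is not given. ILK-expressing replicates 4 (D') and 5 (C') have no D label, nor has ILK-deficient replicate 5 (D'), which leaves 4 arrays against 3. With the label letter as a block, the log2 fold change was 0.58 (adjusted p = 0.0499), and the D' and C' arrays are too few for values of their own. Under the methods' rule of 1.5-fold at an unadjusted p under 0.05, Pdgfc was again the 1 member called.

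**Figure D4:**
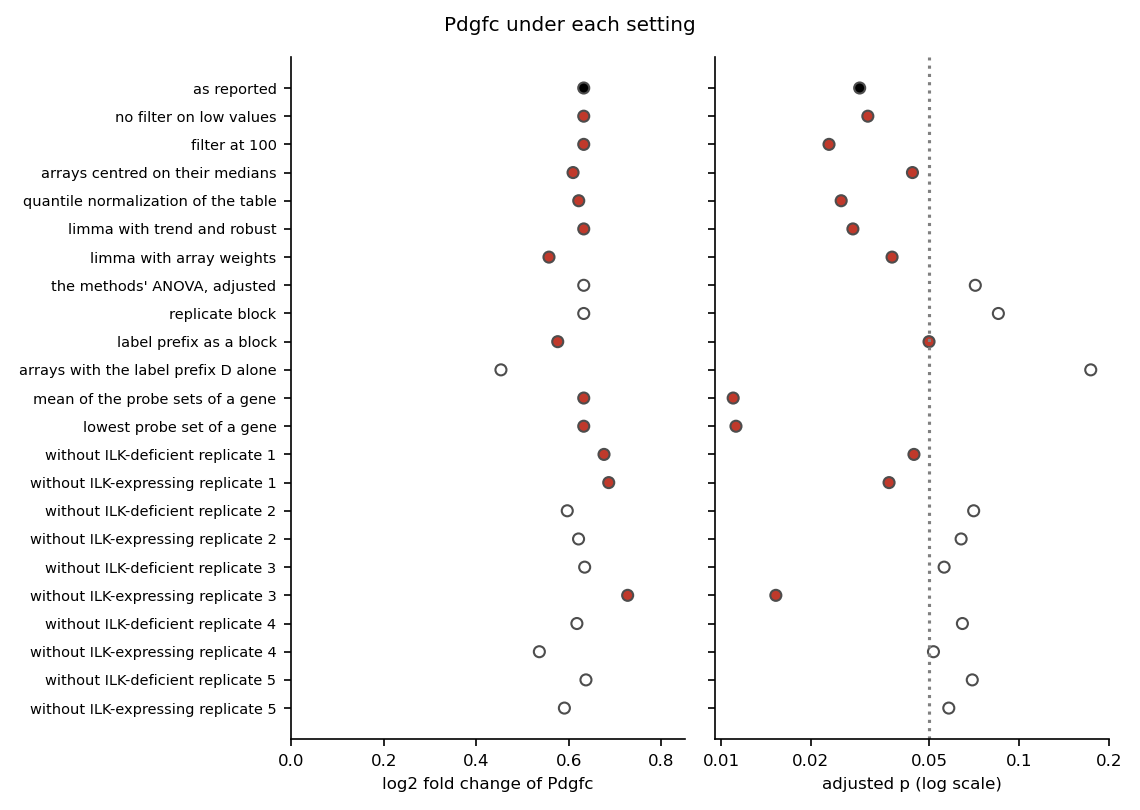
Log2 fold change of Pdgfc (left) and its adjusted p on a log scale (right) as reported (black) and under 22 of the 23 alternative settings, named at the side, filled red where the adjusted p is under 0.05. The fold change lies between 0.45 and 0.73 throughout, while the adjusted p falls on both sides of the dotted line at 0.05.

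The genes whose pattern over the 10 arrays was nearest to that of Pdgfc were 2900026A02Rik, Gramd1a, a protein of sterol transport, and Ftl1, the light chain of ferritin. After centring each gene on its own mean, their root mean square difference from Pdgfc was 0.119, 0.124 and 0.126 log2 units, the smallest of 18120 other genes. Their log2 fold changes were 0.49, 0.54 and 0.65. They were found by likeness to a gene that differs between genotypes, so these values are a description and no test. Ferritin light chain has near-identical copies in the genome, and which of them its probes read is uncertain.

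Of the other VEGF family genes and Pdgfrl, none of the 7 tested was called, and all are given here as the members' own family. Nrp2, a co-receptor of VEGF-C and semaphorins, had a log2 fold change of 0.63, as large as that of Pdgfc, but with a standard error of 0.24 (adjusted p = 0.223 from limma). It ranged from 9.57 to 10.89 in ILK-deficient and from 9.23 to 10.27 in ILK-expressing epidermis, and of the ILK-deficient arrays only replicate 3 lay within the range of the other genotype. Vegfd, a second lymphatic ligand, was at -0.27 (adjusted p = 0.324). Flt1 and Kdr, the VEGF-A receptors of blood endothelium, were at 0.0084 and 0.058 (adjusted p = 0.979 and 0.797). Nrp1, a co-receptor of VEGF-A, and Pgf, a ligand of Flt1, were at -0.072 and -0.11 (adjusted p = 0.844 and 0.456). Pdgfrl, a receptor-like gene without a kinase domain, was at 0.21 (adjusted p = 0.103). Flt1, Kdr, Pgf and Pdgfrl had means of 5.74 to 6.44 over the 10 arrays, near the limit of 5.64, and Kdr reached it on 9 arrays. Flt4 was under 50 on all 10 arrays and was not tested. The median of the 7 was 0.0084.

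Of 12 genes for the cutting of latent ligands and their retention in matrix, 10 were tested and Adamts1 was called, beside 3.78% of all probe sets tested. This metalloprotease, which can hold VEGF-A away from its receptor, rose by 0.49 (standard error 0.11, adjusted p = 0.0335 from limma), a call lost under 13 of 23 alternatives. Sparc, a matrix protein that binds PDGF, was at -0.65 (adjusted p = 0.0771). It read 10.68 to 11.71 in ILK-deficient and 11.78 to 12.25 in ILK-expressing epidermis, with no overlap, yet did not pass. Of all probe sets tested, 6.33% were without overlap. Plat, the tissue plasminogen activator that can release PDGF-C from its latent form and was singled out here after its value was seen, was at 0.50 (adjusted p = 0.0997). Timp3, an inhibitor of metalloproteases, was at 0.13 (adjusted p = 0.875). The list's median was 0.13.

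Of 24 genes that relay receptor tyrosine kinases, 19 had a probe set of their own, and 3 of these were called, all higher. Among all probe sets tested, 3.78% were called and 2.81% were called higher. Braf, a kinase ahead of MEK, rose by 0.50 (standard error 0.096, adjusted p = 0.0194 from limma), and its call was lost under 3 of 23 alternatives. Pik3ca, a catalytic subunit of PI 3-kinase, rose by 0.35 (adjusted p = 0.0404, lost under 15). Rasa1, a brake on Ras that docks on PDGF receptors, rose by 0.29 (adjusted p = 0.0231, lost under 7). Akt2, at -0.012, and Ptpn11, at -0.11, did not pass (adjusted p = 0.963 and 0.631). For Akt2, which has 2 probe sets, only that with the higher mean is given. The median of the 19 was 0.065. These proteins serve many receptors, and the array does not measure their activity.

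Of 19 genes of oxygen sensing and targets of hypoxia-inducible factor, which raises Vegfa when oxygen is short, 18 were tested and 1 was called, lower. Among all probe sets tested, 3.78% were called, and the genotypes did not overlap for 6.33%. Ldha, the lactate dehydrogenase of glycolysis, fell by 0.40 (standard error 0.079, adjusted p = 0.0232 from limma, lost under 7 of 23 alternatives). Slc2a1, the glucose transporter GLUT1, was at -0.054 (adjusted p = 0.935), and Pgk1, a glycolytic enzyme, was at -0.34 (adjusted p = 0.123). Pgk1 has 3 probe sets with its symbol, and only that with the highest mean is given here. Ndrg1, at 0.72, and Ero1a, at -0.59, were singled out here because their genotypes did not overlap, and neither passed (adjusted p = 0.0621 and 0.11). The list had 7 genes above 0 and 11 below, with a median of -0.051.

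**Figure D5:**
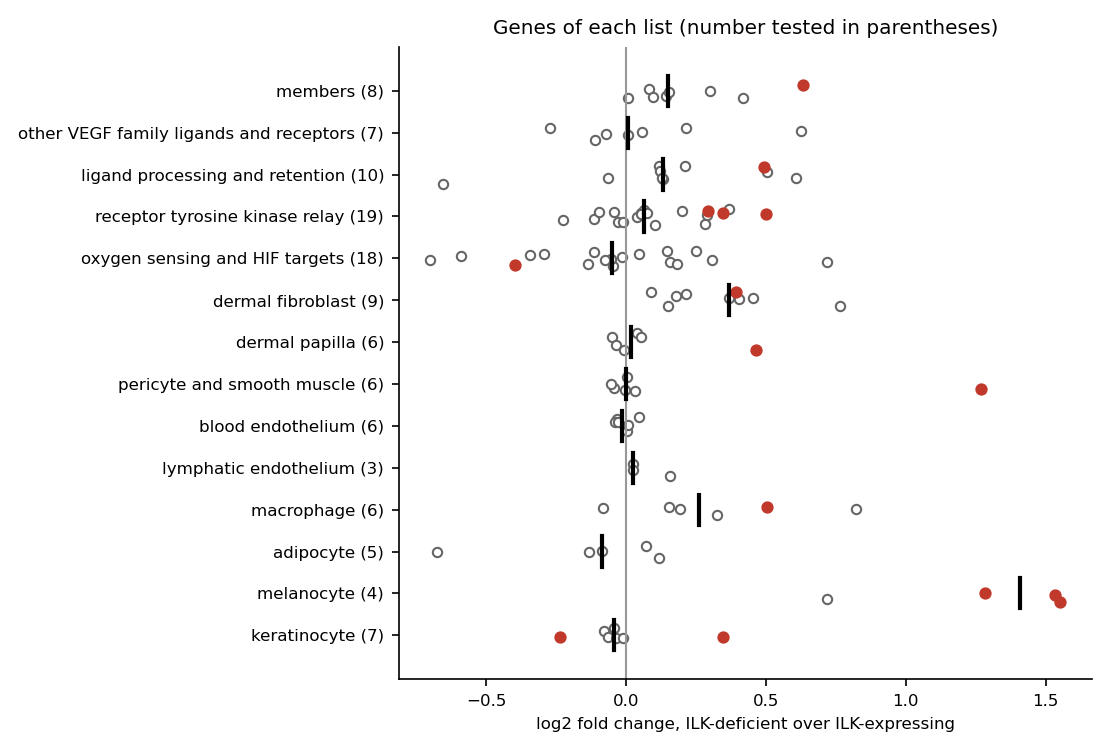
Log2 fold change of ILK-deficient over ILK-expressing epidermis (horizontal axis) for the genes of each list, 1 point per gene tested, filled where called by limma, with a bar at the median. The members' median is 0.15, and the melanocyte markers, with a median of 1.41, lie furthest to the right.

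All 7 keratinocyte markers were at 50 or more on all 10 arrays, with summed linear values of 74030 to 78640 in ILK-deficient and 73687 to 82899 in ILK-expressing epidermis. Krt14, the basal keratin whose promoter drives Cre, fell by 0.23 (adjusted p = 0.0452, lost under 14 of 23 alternatives), and Trp63, a factor of basal cells, rose by 0.35 (adjusted p = 0.0204, lost under 8). Krt1 and Krt10 were at -0.065 and -0.044 (adjusted p = 0.753 and 0.858). The Ilk probe set, which pools exons inside and outside the floxed part, averaged 8.94 ± 0.12 (SD) over 5 ILK-deficient arrays against 9.17 ± 0.18 (SD) over 5 others, was not called (adjusted p = 0.253) and so checks the labels little. The arrays correlated with each other at 0.971 to 0.992, and no 2 held the same values.

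Markers of the cells that carry the receptors were compared beside the members. Over all probe sets tested, 3.78% were called, and the genotypes did not overlap for 6.33%. Sums of linear values are over all measured markers of a list, tested or not. Of 9 dermal fibroblast markers, 1 was called, Thy1, which rose by 0.39 (adjusted p = 0.0421, lost under 17 of 23 alternatives). Which cells of the sheet the Thy1 transcript came from was not tested. All 9 fibroblast markers were above 0, with a median of 0.37. The median was 0.16 without ILK-deficient replicate 3, a setting read here after the data were seen. Dcn and Fbln1, which did not pass, were at 0.77 and 0.45 (adjusted p = 0.467 and 0.138). Dcn read 9.74 in ILK-expressing replicate 4 against 11.03 to 12.25 in the other 4 arrays of that genotype, and without this array Dcn was at 0.35 and Fbln1 at 0.30. The list's summed linear value was 5509 to 8493 in ILK-deficient and 2571 to 7001 in ILK-expressing epidermis, where the same array was lowest and the next was at 4424, while Pdgfra, a marker of the same cells, was at 0.08. Dcn and Fbln1 make up most of that sum, with log2 means over the 10 arrays of 11.79 and 10.34. The other fibroblast markers had means of 8.01 or less, so the sum says little about them. Of 6 dermal papilla markers measured, Hhip, a hedgehog-binding protein, rose by 0.46 (adjusted p = 0.0252, lost under 8 of 22), while Crabp1 and Alpl were at 0.04 and -0.051 (sums 595 to 667 against 580 to 659). Of 6 pericyte and smooth muscle markers tested, Cspg4, the NG2 proteoglycan also found on keratinocyte progenitors and melanocytic cells, rose by 1.27 (standard error 0.22, adjusted p = 0.0124, called under all 23 alternatives), while Notch3 and Kcnj8 were at -0.045 and 0.032 (sums 1582 to 1977 against 1258 to 1688). Notch3 and Cspg4, with log2 means of 9.62 and 8.70, make up most of these sums. None of 6 blood endothelium markers tested was called, and Emcn and Cldn5 were at 0.0045 and 0.0075 (sums 404 to 459 against 403 to 451). None of 3 lymphatic markers tested was called, with Lyve1 and Reln at 0.026 and 0.024 and Prox1, singled out because its genotypes did not overlap, at 0.16 (adjusted p = 0.134, sums 240 to 254 against 228 to 263). The tested blood endothelium markers averaged 5.75 to 6.41 over the 10 arrays, and the lymphatic ones 5.81 to 6.35. Rgs5, Abcc9, Kcnj8 and Myh11 averaged 5.85 to 6.17. All of these lie near the limit of 5.64, which limits what their small changes show. Hhip, Lum and Dpt, with means of 6.18, 5.85 and 6.08, are also near it. The fibroblast median of 0.37 is the value of Dpt. Hhip was at 0.37 without ILK-deficient replicate 5, its highest array.

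Markers of pigment cells differed most. Of 4 melanocyte markers, 3 rose, Tyr by 1.55, Dct by 1.53 and Pmel by 1.28 (adjusted p = 0.0163, 0.0313 and 0.0312 from limma), and Mlana was at 0.72 (adjusted p = 0.133). The calls were lost under 2, 9 and 11 of 23 alternatives. Over all probe sets tested, 2.81% were called higher. Their summed linear value was 4250 to 8133 in ILK-deficient and 1153 to 3003 in ILK-expressing epidermis, the only one of the 9 marker lists whose sums did not overlap. Dct and Pmel, with log2 means of 11.2 and 10.05 over the 10 arrays, make up most of that sum. Both were lowest in ILK-expressing replicate 1. Tyr and Mlana had means of 7.73 and 7.78, and the genotypes overlapped for Mlana. Of 6 macrophage markers, Adgre1, which encodes F4/80, rose by 0.50 (adjusted p = 0.0107, lost under 3 of 23), and C1qb and Csf1r were at 0.82 and 0.15 (adjusted p = 0.0622 and 0.744, sums 1327 to 1719 against 1051 to 1467). In this list 5 markers were above 0 and 1 below, Cd68, at -0.081 (adjusted p = 0.887 from limma). Mrc1 averaged 5.79 over the 10 arrays and reached a linear 50 on only 7. Of 5 adipocyte markers none was called, with Fabp4 at -0.68, or -0.35 without ILK-expressing replicate 4, and Plin1 at 0.12 (adjusted p = 0.44 and 0.54, sums 365 to 487 against 405 to 884). Among the markers, Des, Tie1 and Mmrn1 were under the filter on low values and were not tested, but the sums of their lists include them. The part of these cells in the higher value of Pdgfc was not tested.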

How the data were processed

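Epidermal RNA of 5 ILK-deficient and 5 ILK-expressing mice was hybridised to 10 GeneChip Mouse Gene 1.0 ST Arrays, 1 per mouse. The deposited log2 values are the authors' summaries per probe set. Their methods name GC-RMA and RMA, the labels Partek and RMA, and which made the table is not stated. Array medians lay between 7.07 and 7.17. The number of arrays limits the precision.

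Of 35556 probe sets, 21789 carry 1 symbol in the platform annotation, 1621 several and 12146 none. Only the first were named, by current symbols through Entrez IDs, and a gene with several was represented by that with the highest mean. The 32046 probe sets that reached a linear 50 on 5 or more arrays were fitted with limma 3.58.1 in R 4.3.3 (lmFit, eBayes, no block), with Benjamini-Hochberg adjustment over all of them. Single values were also compared by exact permutation over 126 assignments of the arrays, with no adjustment over probe sets. The fit was tested on simulated data. The 23 alternatives changed the filter, scaling, test, block, probe set or arrays.

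Genes named are all members, of each other list up to 4 past the test, largest change first, and up to 2 with the highest means that did not pass, and the 3 nearest patterns to a called member. Members and lists were chosen with earlier results of these data known. Groups come from the sample titles. Each array is 1 mouse, and with litters not given the p-values measure the spread between these mice. Upstream sequences are RefSeq's, GRCm38.p6.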

Additional observations from a re-analysis of the deposited data

Results flagged for a closer look

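In all, 3 values stood far from the other 4 arrays of their genotype, by a gap over range above Dixon's critical value of 0.71, among 46 groups of 5 examined, where chance flags about 1 in 20. Hhip was at 6.77 in ILK-deficient replicate 5, against 6.25 to 6.38 in the others. Dct was at 9.13 in ILK-expressing replicate 1, against 10.51 to 10.89, and Pmel was at 8.65 on the same array, against 9.51 to 9.67. None of the 9 PDGF and VEGF genes had such an array, though Vegfc in ILK-deficient replicate 2 fell just short, with a gap over range of 0.708.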

How the results depend on the processing

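Pdgfa, Pdgfb, Pdgfra, Vegfa, Vegfb and Vegfc kept their sign and stayed uncalled under every alternative that could be run on them. Pdgfrb turned to -0.015 with arrays centred on their medians and lay between -0.037 and 0.044 when 1 array was left out, uncalled throughout. On the arrays labelled D, Pdgfa was at 0.26, Vegfa at 0.069, Vegfb at 0.19, Vegfc at 0.056 and Pdgfra at 0.16, and with the label letter as a block Pdgfra was at 0.03. Members called fell from 1 to 0 with the methods' ANOVA, the replicate block and the arrays labelled D alone, and were 0 or 1 when 1 array was left out. Pdgfc stayed at 0.63 with the ANOVA and with the block (adjusted p = 0.0713 and 0.0853), was at 0.45 on the arrays labelled D, and lay between 0.54 and 0.73 when 1 array was left out. Over all probe sets, 1211 calls became 686 with the ANOVA, 780 by the methods' rule, 608 with the replicate block, 294 on the arrays labelled D and 597 to 1010 when 1 array was left out, and under the others lay between 848 with arrays centred on their medians and 1696 of 18112 genes with probe sets averaged, with 1493 after quantile normalization, and the cause was not tested where no array was left out. Arrays of the same number shared no more than that number. The correlation of their deviations from the group means ran from -0.296 to 0.113, and no ILK-deficient array correlated best with the ILK-expressing array of its number, so the block is no paired design. The filter at 100 left out Pdgfra, Pdgfrb and Vegfc, which have no value there. Signal near background limits Pdgfd, Vegfc and both receptors, and also Flt1, Kdr, Pgf, Pdgfrl, Hhip, Lum, Dpt, Mrc1 and the endothelial markers.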
